A study of Mus musculus with 6 samples.

Results

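Matrix metalloproteinases, their inhibitors and one ADAMTS protease were followed in cultured cells labelled C2C12, a line of mouse myoblasts that stop dividing and fuse to form myotubes. The 9 genes were MMP1, MMP2, MMP3, MMP11, MMP14, TIMP1, TIMP2, TIMP3 and ADAMTS1, and every probe set with one of them as its single annotated symbol was taken, which gave 17 of the 22283 probe sets on the array (9 of 11938 genes with a probe set of their own, XIST and Y-linked genes aside). The groups were 3 arrays of myotubes, coded D1 to D3 and grown with 2.5% horse serum per the labels, and 3 arrays of myoblasts, coded G1 to G3, whose medium the labels do not give. Whether D1 to D3 are replicates or days is not explained there. They are treated here as replicates, and the medium and the stage cannot be told apart. No passage or clone is named. The arrays (HG-U133A) carry probes for human transcripts, although mouse is the labelled organism. Which species the RNA came from was not settled here, and human gene symbols are used as annotated.

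Matrix metalloproteinases (MMPs) are zinc-dependent proteases that cut collagens, gelatin, laminins and other matrix proteins, and are made with an inhibitory propeptide that must be removed. Tissue inhibitors of metalloproteinases (TIMPs) bind the active site of the enzymes, and TIMP2 also takes part in the activation of the MMP2 proenzyme by the membrane-anchored MMP14. In muscle these proteins are known for remodelling the matrix around fibres and satellite cells during growth and repair.

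In myotubes the level of the gelatinase MMP2 and of the inhibitors TIMP2 and TIMP3 was higher than in myoblasts, and 1 of 3 MMP11 probe sets was also higher. MMP14, which sits at the cell surface, and ADAMTS1, a secreted protease that cuts proteoglycans, had no probe set past the threshold, and MMP1 was not told from background. Of the 15 probe sets bright enough to be tested, 6 passed as higher, 0 as lower and 9 did not pass (limma, Benjamini-Hochberg adjusted p under 0.05 over all tested probe sets). Across the array 11.1% of 13298 tested probe sets passed, 4.85% as higher and 6.26% as lower. Of the 6 calls 3 were of TIMP3, and probe sets of 1 gene are repeated readings. By gene, 4 of 8 tested members had a called probe set, where 11.8% of 8142 genes passed by their brightest probe set. For MMP11 and TIMP3, called genes with several tested probe sets, the brightest tested probe set was among those called. The median log2 change of the 15 probe sets was 0.71, against 0.08 over all tested probe sets. The members were chosen with earlier results of these data known, so these comparisons with the array are description only. Without myoblast array 3, myotube array 1 or myotube array 2, 3 probe sets passed. All 6 calls were lost when the laboratory series of the arrays entered the fit as a block, as described further below. RNA was measured in bulk, so fewer cells of a type and less RNA per cell cannot be told apart.

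Promoters of the mouse counterparts are shown because the members differ in the short motifs for which promoters of this family are known. RefSeq windows of 300 bases, build GRCm38.p6, from 250 bases before to 50 after the start site, were given for 9 mouse genes, covering 8 of the 9 members with both Mmp1a and Mmp1b for MMP1. Mmp2 was the member without an entry. Capitals mark matches, on either strand, to the AP-1 motif TGANTCA, the SP1 motif GGGCGG, the TATA box TATAAA and the ETS motif AGGAAG. Timp2 (chr11:118355362-118355661, minus strand), Timp3 (chr10:86300162-86300461, plus strand) and Mmp11 (chr10:75932453-75932752, minus strand) are counterparts of genes with a called probe set. Mmp3 (chr9:7445572-7445871, plus strand) and Mmp1a (chr9:7463891-7464190, plus strand) belong to genes with none, although MMP1 was too dim to be tested.
Timp2: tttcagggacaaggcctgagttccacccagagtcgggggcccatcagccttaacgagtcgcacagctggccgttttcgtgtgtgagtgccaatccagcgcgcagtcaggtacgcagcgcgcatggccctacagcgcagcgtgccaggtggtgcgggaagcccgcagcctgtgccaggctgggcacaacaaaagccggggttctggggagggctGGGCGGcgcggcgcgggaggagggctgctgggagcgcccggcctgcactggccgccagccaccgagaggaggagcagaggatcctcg
Timp3: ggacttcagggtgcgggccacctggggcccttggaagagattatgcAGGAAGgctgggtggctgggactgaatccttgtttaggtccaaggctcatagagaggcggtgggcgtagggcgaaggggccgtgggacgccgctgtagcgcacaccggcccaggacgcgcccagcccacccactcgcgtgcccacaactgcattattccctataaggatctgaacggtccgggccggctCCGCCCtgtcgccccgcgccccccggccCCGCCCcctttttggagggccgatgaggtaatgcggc
Mmp11: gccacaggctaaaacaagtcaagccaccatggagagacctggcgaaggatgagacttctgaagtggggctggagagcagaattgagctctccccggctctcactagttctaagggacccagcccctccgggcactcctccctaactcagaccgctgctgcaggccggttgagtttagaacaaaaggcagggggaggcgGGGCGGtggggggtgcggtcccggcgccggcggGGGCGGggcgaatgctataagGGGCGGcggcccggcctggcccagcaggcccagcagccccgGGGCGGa
Mmp3: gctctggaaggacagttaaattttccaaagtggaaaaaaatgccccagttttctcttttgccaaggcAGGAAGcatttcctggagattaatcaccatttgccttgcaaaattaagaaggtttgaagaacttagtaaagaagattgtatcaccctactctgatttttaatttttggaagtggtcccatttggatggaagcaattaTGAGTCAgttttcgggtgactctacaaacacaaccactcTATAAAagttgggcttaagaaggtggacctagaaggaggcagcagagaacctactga
Mmp1a: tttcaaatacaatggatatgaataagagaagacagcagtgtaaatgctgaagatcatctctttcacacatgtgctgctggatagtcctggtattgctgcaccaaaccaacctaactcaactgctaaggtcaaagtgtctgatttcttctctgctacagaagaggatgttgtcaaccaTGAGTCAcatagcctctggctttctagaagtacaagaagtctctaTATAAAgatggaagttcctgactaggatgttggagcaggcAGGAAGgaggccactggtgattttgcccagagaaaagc

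The Mmp1a, Mmp1b and Mmp3 windows held the AP-1 motif as TGAGTCA, first base at -73, -93 and -46 from the start site. The same windows held a TATA box at -28, -49 and -7, and no GGGCGG. The 6 other windows (Mmp11, Mmp14, Timp1, Timp2, Timp3 and Adamts1) all held GGGCGG and none held TGANTCA, and among them only the Adamts1 window had a TATA box. Of these 6, Mmp14, Timp1 and Adamts1 are counterparts of genes with no called probe set, so the motifs do not separate called from uncalled genes. Across 32851 RefSeq promoter windows of this length, 7.81% held TGANTCA, 35.7% GGGCGG, 13.6% TATAAA and 35.4% AGGAAG. The 4 motifs share no site here, and the GGGCGG copies at -19 and -13 in Mmp14 lie end to end. A match describes these letters only and measures no factor at the promoter.

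MMP2 is the gelatinase that cleaves denatured collagen and type IV collagen. Its one probe set (201069_at) had signals of 26359, 14697 and 28716 in myotubes 1, 2 and 3, against 8302, 7455 and 7590 in myoblasts 1, 2 and 3. Signals are MAS5 values on a linear scale with no physical unit. All 3 myotube arrays lay above all 3 myoblast arrays, and myotube array 2 was well below the other 2. The mean signal was 23257 ± 7506 in myotubes and 7782 ± 455 in myoblasts (SD, n = 3 each). The fitted change was 2.83-fold, or log2 1.50 ± 0.25 (SE; limma adjusted p = 0.00565). Folds are on the scale of log2(signal + 197), which understates the change of dim probe sets.

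The stromelysin MMP3, which cuts proteoglycans and activates other MMP proenzymes, did not pass. Its probe set (205828_at) gave 1401, 32.0 and 678 in myotubes, against 625, 728 and 745 in myoblasts. The groups overlapped. The signals of myotube array 2 and myoblast array 1 lay below their arrays' highest unspiked bacterial control signals (1040 and 920), the background level defined below. The order of the arrays is therefore not read. The log2 change was -0.39 ± 0.60 (limma adjusted p = 0.687), with a 95% interval of -1.73 to 0.96, so the arrays do not fix even its direction. Without myotube array 2 the log2 change was 0.40.

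The interstitial collagenase MMP1, which opens the triple helix of fibrillar collagens, gave 44.0, 57.2 and 188 in myotubes and 43.6, 130 and 167 in myoblasts. Each array's highest unspiked bacterial control signal, between 251.5 and 1040.2, was used as the level below which a value is not told from background. All 6 MMP1 signals lay below it, and the probe set (204475_at) fell under the filter on dim probe sets, so no fold is given.

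MMP11, or stromelysin-3, is a secreted protease activated inside the cell by furin. Its 3 probe sets did not behave alike. Probe set 203878_s_at gave 983, 1240 and 987 in myotubes, against 316, 316 and 319 in myoblasts. The groups did not overlap, and the lowest myotube signal was 3.08 times the highest myoblast signal. The log2 change was 1.29 ± 0.32 (limma adjusted p = 0.0282). All 3 myotube signals were above the control level of their array, but only 1 of the 3 myoblast signals was, so with dim myoblast signals raised to that level the fold is at least 1.88. The call was lost in 10 of 18 other settings (adjusted p up to 0.378), among them without myoblast array 2 or 3 or myotube array 1 or 2, and with the median as pseudocount the log2 change was 0.82.

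A second MMP11 probe set (203876_s_at) gave 1123, 402 and 467 in myotubes and 710, 265 and 273 in myoblasts. Only 1 myotube and 1 myoblast signal lay above its array's control level, so the order of the arrays is not read, and the change did not pass (limma adjusted p = 0.491). The third (203877_at) gave 240, 734 and 56.1 in myotubes and 189, 53.4 and 52.5 in myoblasts, none above its array's control level, and was not tested. The call for MMP11 therefore rests on 1 probe set of 3.

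MMP14, the membrane-type enzyme that activates pro-MMP2, passed with none of its 4 probe sets. Probe set 160020_at gave 9823, 9358 and 7457 in myotubes, against 8582, 6192 and 5933 in myoblasts. The myoblast array 1 signal lay within the myotube range, so the groups overlapped. The log2 change was 0.36 ± 0.20 (limma adjusted p = 0.245, 95% interval -0.08 to 0.81), which leaves room for a rise up to 1.75-fold. Probe sets 202827_s_at and 202828_s_at had log2 changes of 0.20 ± 0.20 and 0.16 ± 0.27 (limma adjusted p = 0.51 and 0.699).

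The fourth MMP14 probe set had a negative change. Probe set 217279_x_at, whose suffix marks probes that may match other transcripts, gave 1502, 1621 and 1548 in myotubes, against 1821, 3390 and 2819 in myoblasts. Here all myoblast arrays lay above all myotube arrays, as for 15.4% of all tested probe sets. The log2 change was -0.67 ± 0.25 (limma adjusted p = 0.108), and it passed as lower, at -0.91 with adjusted p = 0.0153, without myoblast array 1. A block for laboratory series brought it to -0.20 (adjusted p = 0.761). The difference between MMP14 probe sets was not itself tested.

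**Figure D1:**
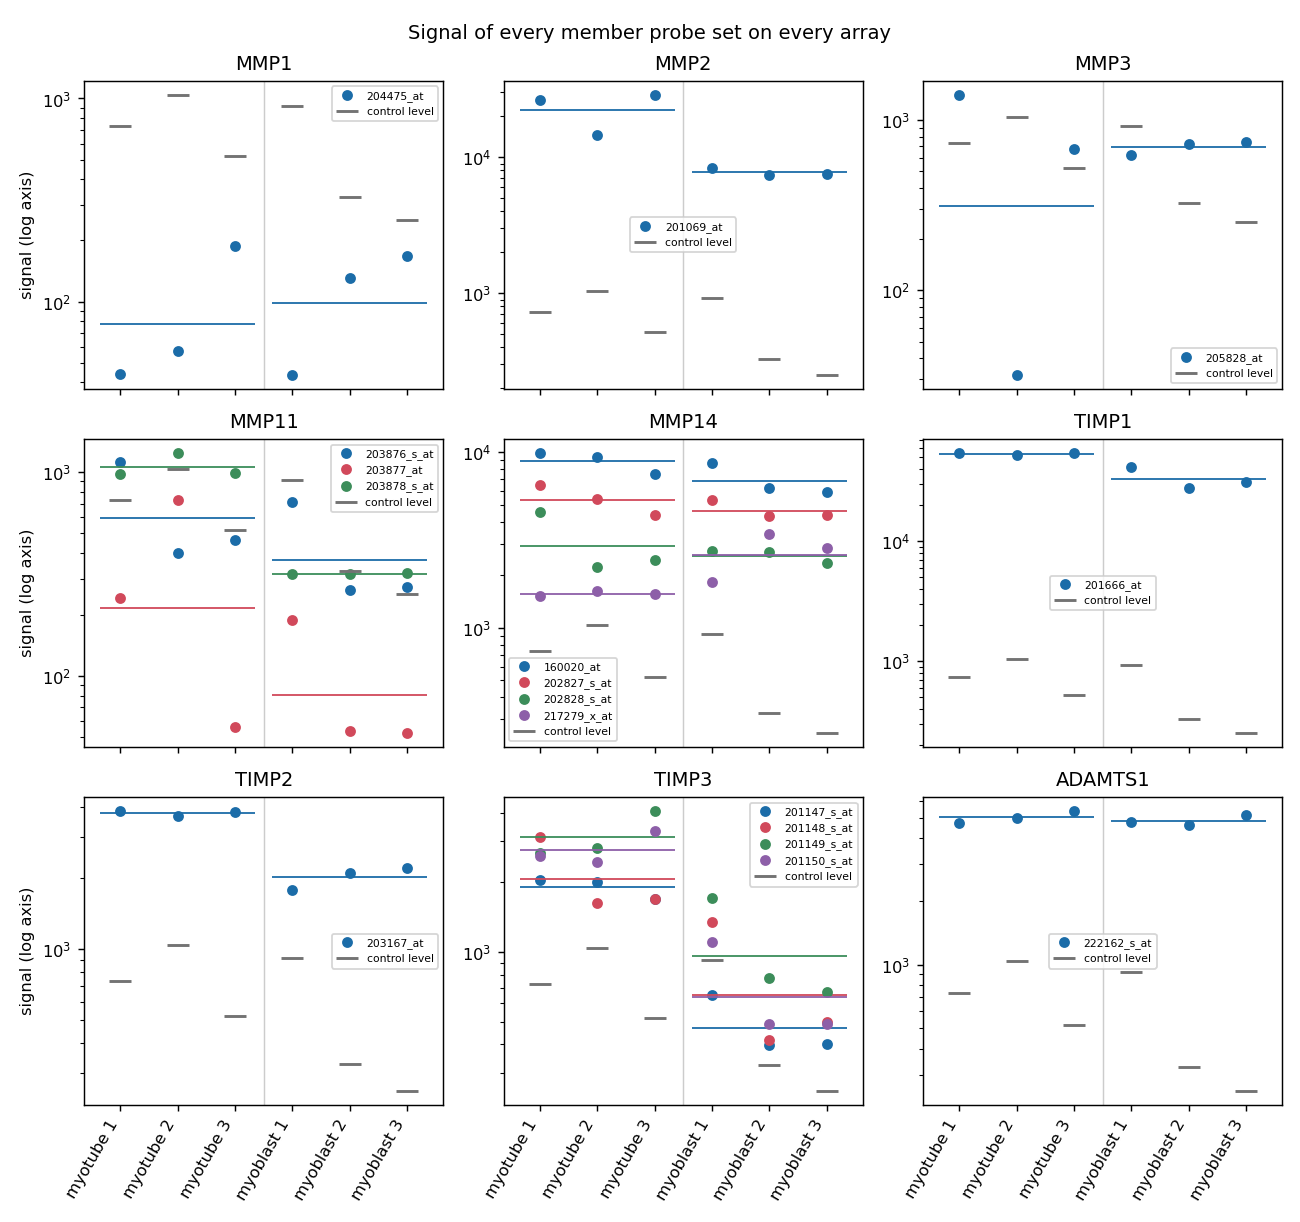
Signal of each of the 17 probe sets on a log axis, one panel per gene, for the 3 myotube arrays on the left and the 3 myoblast arrays on the right; lines are geometric means and grey dashes the control level of each array. Each of the 4 TIMP3 probe sets lies higher on every myotube array than on any myoblast array, MMP1 lies below the control level throughout, and the ADAMTS1 signals of both groups overlap.

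TIMP3 differs from the other inhibitors in binding to the extracellular matrix, and it also blocks several ADAM and ADAMTS proteases. It was measured by 4 probe sets, of which 3 passed as higher. Probe set 201150_s_at gave 2601, 2445 and 3329 in myotubes, against 1107, 492 and 488 in myoblasts. The fitted change, 3.49-fold or log2 1.80 ± 0.31 (limma adjusted p = 0.0067), was the largest among the members in this fit, though not with the series block.

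Probe set 201147_s_at of TIMP3 gave 2044, 2007 and 1692 in myotubes and 653, 398 and 400 in myoblasts, a log2 change of 1.65 ± 0.29 (limma adjusted p = 0.00751). The myoblast array 1 signal was under its control level, and with it raised to that level the fold is at least 2.86. Probe set 201149_s_at gave 2670, 2809 and 4053 in myotubes and 1718, 773 and 673 in myoblasts (log2 1.50 ± 0.32, limma adjusted p = 0.0174). That last call was lost in 7 of 19 other settings, among them without myoblast array 3 or any one myotube array (adjusted p up to 0.448 over the settings). In all of these, myotubes lay above myoblasts with no overlap, and myoblast array 1 was the highest of the myoblast arrays.

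The remaining TIMP3 probe set (201148_s_at) gave 3139, 1635 and 1702 in myotubes and 1352, 416 and 499 in myoblasts. Its groups did not overlap either, but the log2 change of 1.38 ± 0.40 had a limma adjusted p of 0.0515 and did not pass. The 4 probe sets share one gene and the same 6 RNA samples, so they are repeated readings and not independent replicates.

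TIMP2, the inhibitor that bridges MMP14 and pro-MMP2, gave 3841, 3664 and 3812 in myotubes, against 1790, 2094 and 2217 in myoblasts (203167_at). The mean signal was 3772 ± 95.04 in myotubes and 2034 ± 220 in myoblasts (SD, n = 3 each), and the groups did not overlap. The change was 1.79-fold, or log2 0.84 ± 0.19 (limma adjusted p = 0.0197). Its call was among the less stable: it was lost in 9 of 19 other settings, with adjusted p-values up to 0.208. Leaving out any one array other than myoblast array 1 or myotube array 3 ended it.

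TIMP1, a secreted inhibitor that also promotes cell growth, was measured by 1 probe set (201666_at). It gave 54286, 52772 and 53891 in myotubes, against 41365, 27644 and 30937 in myoblasts. All myotube signals lay within a narrow band above the myoblast signals, which spread more widely. The log2 change of 0.71 ± 0.25 did not pass (limma adjusted p = 0.0958, 95% interval 0.15 to 1.26). Without myoblast array 1 it was 0.87 and passed (adjusted p = 0.00506), in a fit that called 26.0% of all tested probe sets. Quantile normalization lowered the TIMP1 change to 0.405, which did not pass (limma adjusted p = 0.0602).

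ADAMTS1 gave 4725, 5003 and 5366 in myotubes and 4792, 4601 and 5139 in myoblasts (222162_s_at). The signals of the groups interleaved. The log2 change was 0.05 ± 0.16 (limma adjusted p = 0.846), and its 95% interval of -0.31 to 0.42 spans folds of 0.806 to 1.33.

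In all, 8 of the 15 tested probe sets had every myotube array above every myoblast array, as did 17.4% of all tested probe sets, and 1 had the opposite order. The 8 belonged to MMP2, MMP11, TIMP1, TIMP2 and TIMP3. Members passed the filter on dim probe sets by their mean over all 6 arrays, and 2 probe sets, of MMP1 and MMP11, did not. MMP11 203878_s_at is among the 6 calls and these 8, but only 1 of its 3 myoblast signals was above the control level. Its myotube signals may thus have carried it past the filter, and with no filter its call was lost (limma adjusted p = 0.0604).

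The myoblast arrays were not alike. Over all probe sets Pearson's r was 0.988 between myoblast arrays 2 and 3 and 0.889 to 0.912 for other pairs of a group, while myotube array 3 reached 0.924 with myoblast array 3. By the codes of the array run records, myoblast array 1 belongs to the same laboratory series as the 3 myotube arrays, and myoblast arrays 2 and 3 form another, a grouping read from consecutive codes that the records do not name. All myotube arrays shared a chip lot and a scan day that held no myoblast array, so neither can be told apart from the groups. Myoblast arrays 2 and 3 also stood apart in level. The geometric mean signal of the spiked controls was 12320 to 71439 in myotubes and 48119, 3539 and 4275 in myoblasts 1, 2 and 3, and the median signal 641 to 789 in myotubes and 665, 518 and 542 in myoblasts. The highest unspiked control signal was 520 to 1040 in myotubes and 920, 326 and 252 in myoblasts. The part of these differences in the members' changes was not tested. Myoblast array 3 was placed by its description, since its title (Grow, G3) gives no stage, and that description numbers only myoblasts 1 and 2. The numbers in the run records of the 3 myoblast arrays also differ from their titles, so which myoblast array belongs to which laboratory series is open to that doubt. Separate cultures are not stated in the labels, so the p-values reflect the spread among these arrays alone, which may be technical.

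Fitting the laboratory series as a block leaves only myoblast array 1 to set against myotubes, and 0 of the 15 member probe sets passed by limma, where 2.48% of all tested probe sets did, 1.48% as higher and 1.0% as lower. At an unadjusted p under 0.05 the number was 6 of 15, against 17.4% of all tested probe sets (without the block, 9 of 15 against 29.9%). All 6 probe sets called without the block kept a positive change. That sign was fixed in advance by the lack of overlap between their groups, so it adds no support. MMP2 had log2 1.41 (adjusted p = 0.0772) and TIMP2 1.00 (adjusted p = 0.0622), close to or above the values without the block. The 3 TIMP3 probe sets had 1.31, 1.18 and 0.79 (adjusted p = 0.0841, 0.0886 and 0.247) for 201147_s_at, 201150_s_at and 201149_s_at, smaller for the last 2 by over 1.5 times. MMP11 203878_s_at had 1.30 (adjusted p = 0.143). The myoblast array 1 signals of MMP11 203878_s_at and TIMP3 201147_s_at were below that array's control level, and raised to it they leave log2 changes of at least 0.18 and 0.91. For each of these 6 probe sets, as for TIMP1, all 3 myotube signals lay above that of myoblast array 1, which the lack of overlap already implies. TIMP1 shrank to 0.37 and MMP14 160020_at to 0.04.

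**Figure D2:**
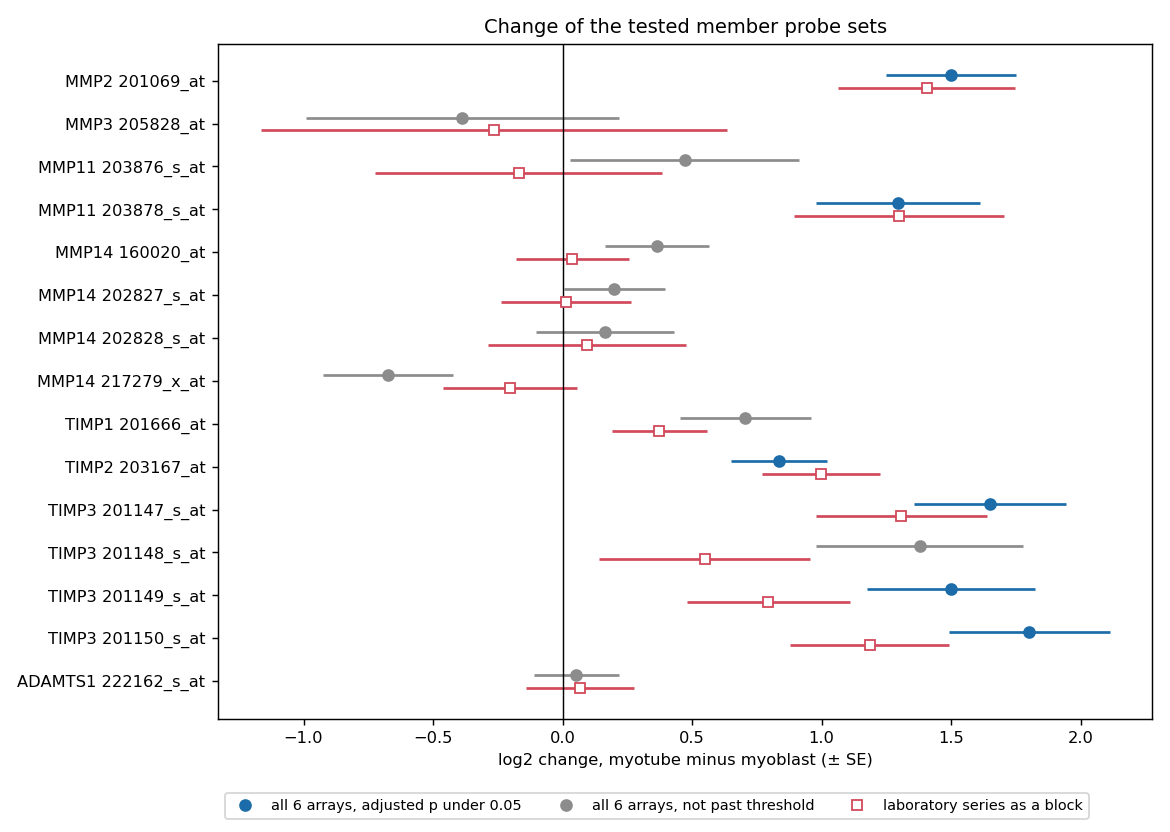
Log2 change, myotube minus myoblast, with its SE for the 15 tested probe sets, from all 6 arrays (circles, blue where the adjusted p was under 0.05) and with the series block (open squares). MMP2, TIMP2 and MMP11 203878_s_at stay near their values with the block, while the TIMP3 probe sets move toward 0, 201148_s_at to 0.55 against 1.38 without it.

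**Figure D3:**
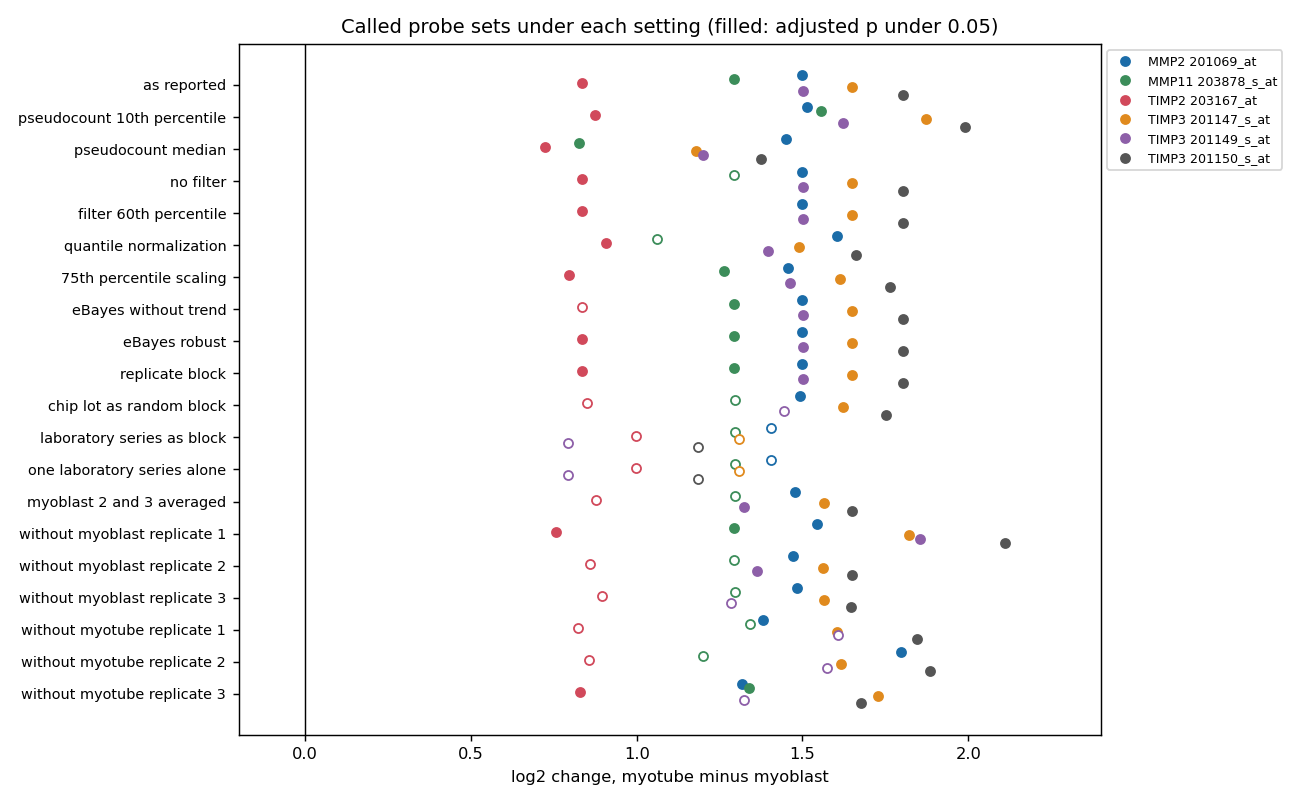
Log2 change of the 6 called probe sets, myotube minus myoblast, under each processing setting, filled where the adjusted p was under 0.05. All values are above 0, which the lack of overlap fixes where arrays are omitted or the laboratory series is used. MMP2 and TIMP3 201150_s_at are filled in every setting except the 2 that use the laboratory series.

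The 3 genes whose pattern over the 6 arrays was most like that of TIMP3 201150_s_at, among 1310 called probe sets with 1 symbol other than TIMP3, were the cardiac actin ACTC1 (Pearson's r = 0.998), the endoplasmic reticulum protein ERP29 (0.996) and the glycoprotein CREG1 (0.995). ACTC1 gave 17010, 16602 and 22950 in myotubes and 6232, 1986 and 1872 in myoblasts, with the same high myotube array 3 and high myoblast array 1. Of the 1310, 199 had r above 0.95, and all were chosen for differing between the groups.

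Around the members, lists of proteolysis genes were read with each gene represented by its brightest tested probe set. Over all 8142 tested genes 11.8% passed, 5.31% as higher and 6.46% as lower, and the median log2 change was 0.11. Of 8 other MMP and TIMP4 genes tested, 0 passed by limma, with 2 at an unadjusted p under 0.05, and their median was 0.50, which turned to -0.35 with the series block. These 2 were MMP19 (log2 1.05 ± 0.33, adjusted p = 0.0684) and the gelatinase MMP9 (0.83 ± 0.31, adjusted p = 0.106), the second at 0.28 with the block. MMP19 also had a dimmer probe set (204575_s_at) that passed as lower, with signals of 182, 204 and 673 in myotubes and 1230, 1879 and 1566 in myoblasts, so its probe sets disagree. The brightest probe sets of MMP10, MMP13, MMP15, MMP20 and MMP28 lay below the control level on every array.

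Of 14 ADAM and ADAMTS genes, 3 rose and 0 fell, with a median of 0.38 (0.10 with the series block). ADAM12, a membrane protease known from fusing myoblasts, gave 3651, 3726 and 3776 in myotubes, against 705, 1595 and 1162 in myoblasts. Its log2 change was 1.59 ± 0.27 (limma adjusted p = 0.00567), and 1 of its 3 tested probe sets passed. The myoblast array 1 signal was below its control level, and raised to it the fold is at least 2.80. A second ADAM12 probe set (204943_at) gave 1746, 1726 and 1502 in myotubes and 1769, 736 and 702 in myoblasts (limma adjusted p = 0.218), with myoblast array 1 above all myotube arrays. The third (213790_at) gave 1039, 1085 and 1115 in myotubes and 625, 669 and 682 in myoblasts, without overlap (limma adjusted p = 0.198). With the series block the log2 change of 202952_s_at was 2.12, or 1.81 with the myoblast array 1 signal raised to its control level. ADAM23, which lacks protease activity, rose by 1.50 ± 0.35, and the aggrecan-cutting ADAMTS5 by 1.20 ± 0.30 (limma adjusted p = 0.0243 and 0.0304), while ADAMTS1 of the same family did not pass. The myoblast array 1 signal of ADAMTS5 was below its control level, and raised to it the log2 change is at least 1.07. With the block ADAM23 and ADAMTS5 did not pass (adjusted p = 0.233 and 0.208).

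The plasminogen system, which generates plasmin and can activate MMP proenzymes, moved in both directions: of 9 genes 2 rose and 2 fell. The urokinase gene PLAU gave 3559, 2840 and 3250 in myotubes, against 1539, 1037 and 1015 in myoblasts (log2 1.31 ± 0.23, limma adjusted p = 0.00767). Its inhibitor SERPINE2 rose by 0.96 ± 0.23 (adjusted p = 0.025). The urokinase receptor PLAUR gave 3204, 2436 and 3220 in myotubes, against 9984, 8173 and 7582 in myoblasts, and fell by 1.48 ± 0.19 on the log2 scale (limma adjusted p = 0.00171). It also passed with the series block (-1.70, adjusted p = 0.0104). The tissue activator PLAT fell by 1.11 ± 0.18 (adjusted p = 0.00485). Enzyme and receptor of the urokinase pair thus had changes of opposite sign, with no overlap of the groups for either. With the block PLAU, SERPINE2 and PLAT did not pass (0.97, 0.63 and -0.85, adjusted p = 0.102, 0.278 and 0.0714).

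Of 15 genes for MMP activation, surface partners and clearance, 1 rose and 1 fell. The matricellular THBS2, which binds MMP2 for uptake, rose by 1.26 ± 0.25 (limma adjusted p = 0.012), and the hyaluronan receptor CD44, a docking protein for MMPs, fell by 0.86 ± 0.22 (adjusted p = 0.0354) in 1 of 7 tested probe sets. Of 22 substrate genes 7 rose and 0 fell, with a median of 0.86 (0.41 with the series block). CCL2, a chemokine that MMPs trim, gave 3587, 3899 and 4146 in myotubes, against 697, 59.7 and 28.7 in myoblasts (limma adjusted p = 0.00238). All its myoblast signals were below the control level of their array. Raised to it, they leave a rise of at least 6.36-fold, or 3.64-fold against myoblast array 1 alone. The fibrillar collagen COL3A1 gave 73150, 70327 and 70233 in myotubes, against 15765, 9137 and 8908 in myoblasts. It and the proteoglycan DCN rose by 2.69 ± 0.26 and 1.72 ± 0.18 (limma adjusted p = 0.000478 and 0.000585), and both passed with the block. THBS2 and CD44 did not (adjusted p = 0.152 and 0.245).

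Of 15 transcription factors known at MMP promoters, 0 rose and 2 fell. The AP-1 subunit FOSL1 gave 1734, 2750 and 1919 in myotubes, against 5018, 6507 and 5998 in myoblasts (log2 -1.39 ± 0.21, limma adjusted p = 0.00401). The ETS factor ELK3 fell by 2.02 ± 0.29 (adjusted p = 0.00279), in 1 of 2 tested probe sets. FOS and FOSB lay below the control level on every array. Of 16 cytokines and growth factors known to induce MMPs or TIMPs, 3 rose and 0 fell. TGFB3 rose by 1.74 ± 0.34, IL1B by 1.61 ± 0.35 and VEGFA by 1.28 ± 0.21 (limma adjusted p = 0.011, 0.0175 and 0.00503). The myoblast array 1 signals of TGFB3 and IL1B were below the control level, and raised to it they leave log2 changes of at least 1.41 and 1.21. With the series block 0 genes of these last lists passed, with 4 of 15 and 3 of 16 at an unadjusted p under 0.05.

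**Figure D4:**
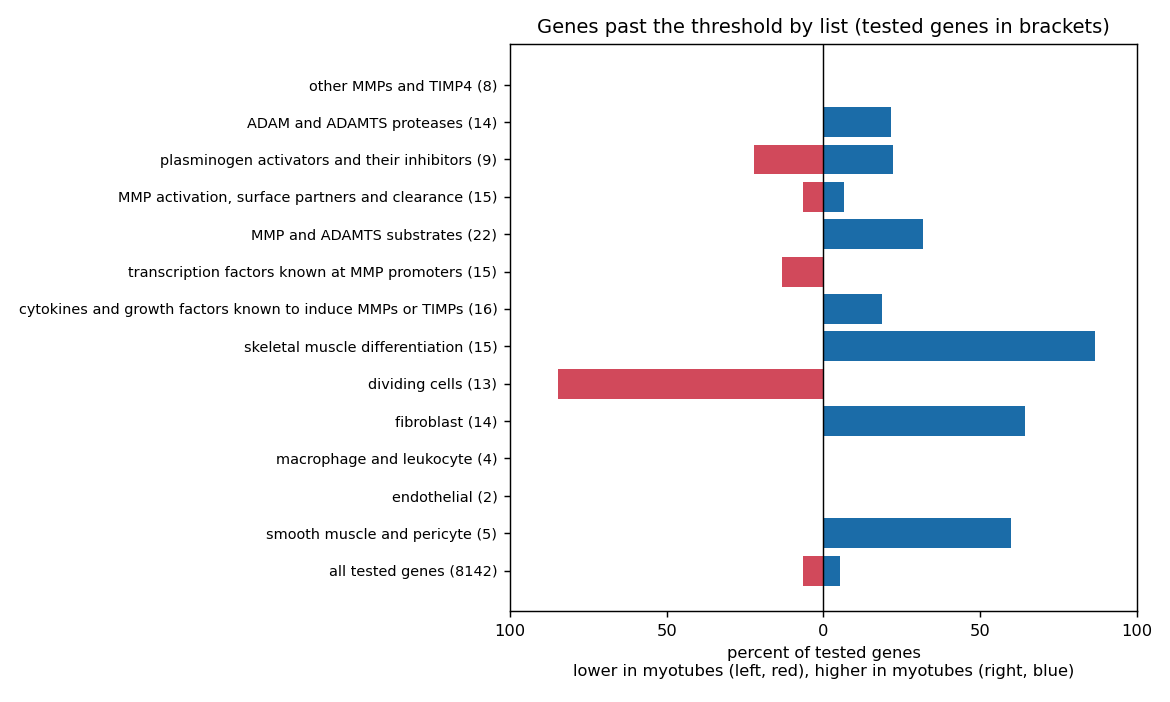
Percent of tested genes past the threshold in each list, lower in myotubes to the left and higher to the right, with the number tested in brackets and all tested genes at the bottom. The plasminogen list has genes on both sides, and the substrate list has 7 of 22 on the right and none on the left.

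Markers of cell stage went with the labels: 13 of 15 tested skeletal muscle differentiation genes were higher in myotubes and 11 of 13 genes of dividing cells lower. Summed signals were 60698 to 68023 in myotubes and 4531 to 16177 in myoblasts for muscle, and 12028 to 15241 in myotubes and 54397 to 60159 in myoblasts for dividing cells. The myosin light chain MYL11 gave 2311, 36.8 and 68.7 in myoblasts 1, 2 and 3, and ACTC1 was also highest in myoblast array 1. TNNI1 and TNNC1 lay below the control level on all myoblast arrays. Myoblast array 1 is the one that the series block sets against myotubes, and the part of its muscle signal in those changes was not tested. Of the muscle markers, TNNI2, CKM and MYOG lay below the control level on every array. Fibroblast markers had summed signals of 443129 to 659614 in myotubes and 140745 to 310750 in myoblasts. Some of them, such as COL3A1 and DCN, are also in the substrate list. Of 14 tested, 9 passed as higher (median 1.53). Of these, 5 passed with the series block. Smooth muscle and pericyte markers also moved, with 3 of 5 higher and summed signals of 66702 to 72537 in myotubes and 18474 to 34840 in myoblasts. However, MYH11 and RGS5 of that list, and TCF21 of the fibroblast list, lay below the control level on every array. MMP2 and the TIMPs are also made by fibroblasts, and the part of these cells in the members' changes was not tested. None of 4 macrophage and leukocyte or 2 endothelial markers tested passed by limma, with 1 of each at an unadjusted p under 0.05. PTPRC, CD14, LYZ, C1QA and TYROBP, and CDH5, KDR, TIE1, EMCN and CLDN5, lay below the control level on every array. Summed signals were 5055 to 7841 in myotubes and 2984 to 4567 in myoblasts for the first list, and 2919 to 4516 in myotubes and 1735 to 2991 in myoblasts for the second.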

How the data were processed

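RNA of 3 myotube and 3 myoblast samples, grouped by GEO's labels, had been hybridised to HG-U133A arrays, 1 sample per array. Each deposited value is a probe set's intensity (linear scale), computed by the authors with MAS5, per the submitters' processing notes, which name no version here. Values between the 2 percent tails averaged 1500.4 to 1500.5 on every array, as global scaling gives. No detection calls or genome were used. The number of arrays limits the precision.

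Of 22283 probe sets, 68 controls and 52 of XIST and Y-linked genes were left out. The platform annotation of 2016 gave 19065 of the non-control probe sets 1 symbol, 1043 several and 2107 none. A pseudocount of 197, the 25th percentile of all signals, was added before log2, and the dimmest 40 percent of probe sets by mean log2 were dropped. The test was limma 3.58.1 in R 4.3.3 with statmod 1.5.0, two-sided, with a variance trend, and Benjamini-Hochberg adjustment over all probe sets tested and a threshold of 0.05. The fit was also run on simulated data with independent noise. Laboratory series and chip lot were not simulated, so that run says nothing about them. The members, the 7 proteolysis lists and the 6 marker lists were chosen with earlier results of these data known. All members were named. Of each proteolysis list up to 3 called genes per direction with the largest change, or where none was called the 2 with the smallest p, were named. Figures were drawn with matplotlib 3.10.9. Alternatives were the pseudocount, filter, scaling, variance model, replicate number, chip lot and laboratory series as blocks, arrays 2 and 3 of the myoblasts averaged, a required change of 2-fold, and each array omitted in turn.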

Additional observations from a re-analysis of the deposited data

How the results depend on the processing

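Of the 6 member probe sets called, 3 were called with chip lot as a random block and 0 with a laboratory series block or in 1 series alone. Leaving out 1 array gave 3 to 9, with 3 without myoblast array 3, myotube array 1 or myotube array 2. MMP2 and TIMP3 201147_s_at and 201150_s_at were called in every setting except those using the laboratory series. Other settings gave 4 to 7. Over all probe sets the count of 1478 became 908 with eBayes without trend, 400, 330 and 172 under chip lot, laboratory series and that series alone, 586 with myoblast arrays 2 and 3 averaged, and 488 to 3454 with 1 array left out. The 21 called genes of the proteolysis lists became 10, 6 and 6 under chip lot, laboratory series and that series alone, and 13 to 47 with 1 array left out. Same-numbered arrays do not pair (correlations of their deviations 0.245, -0.18 and 0.379), and with the replicate block the counts were 7 member probe sets, 2316 probe sets and 34 list genes. Some changes that had not passed turned sign: MMP11 203876_s_at to -0.17 under both laboratory series settings, MMP3 to 0.40 without myotube array 2 (range with 1 array left out -0.999 to 0.40) and MMP14 202828_s_at to -0.14 without myotube array 1 (range -0.14 to 0.35). The causes were not tested. Scaling moved the median of all probe sets from 0.08 to -0.01 (quantile) and 0.04 (75th percentile). Signals near the control level limit MMP1, MMP3 and MMP11.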
